A study of Mus musculus with 19 samples.

Results

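The 4 group 13 Hox genes, Hoxa13, Hoxb13, Hoxc13 and Hoxd13, were followed across fibroblasts grown out of 7 organs of adult mice. They were found by matching the RefSeq accession of each array probe to a gene, which gave 5 probes among 55681 biological probes and 4 genes among 20656 with a symbol. Hoxa13 had 2 probes and the other members 1 each, and all 4 members passed the filter on dim probes that left 20201 genes. The samples were 3 of tail, 2 of skin, 3 of gonad, 2 of kidney, 3 of heart, 3 of liver and 3 of lung, 19 in all. All groups shared their treatment: organs of mice 8 to 10 weeks old were cut into pieces (2 to 3 mm), loosened with an enzyme (trypsin at 0.05%, or collagenase at 0.5 mg/mL) and grown for 5 days in medium with 10% serum. The labels name neither a strain nor a sex, do not say which enzyme a sample received, whether gonad means ovary or testis, or whether replicates came from separate animals. The p-values below therefore measure only the spread between these samples.

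Hox genes lie in 4 clusters in mammals and encode homeodomain transcription factors. Group 13 genes stand at the 5′ end of each cluster, are the last to be switched on along the growing body axis, and are known for patterning the caudal end of the body, the distal limb and the external genitalia. Fibroblasts are known to keep a Hox pattern of their site of origin in culture. Hoxb13 is known for limiting growth of the tail and caudal neural tube, Hoxc13 for hair and nail keratin genes, Hoxa13 for digits and the genital tubercle, and Hoxd13 for digits. The genes lie on chromosomes 11 (Hoxb13), 15 (Hoxc13), 6 (Hoxa13) and 2 (Hoxd13).

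Promoters of 2 of the 4 members, Hoxa13 and Hoxd13, were in the RefSeq table used here (GRCm38.p6), and they are shown as the members that table holds. Each window runs from 250 bases before to 50 bases after the gene's start. The Hoxa13 window is chr6:52260831-52261130 on the minus strand, and the Hoxd13 window is chr2:74667975-74668274 on the plus strand. Capitals mark 3 motifs searched on both strands: the GC box GGGCGG, the TATA box TATAAA, and TTTAT, the core of sites bound by caudal and posterior Hox proteins.
Hoxa13: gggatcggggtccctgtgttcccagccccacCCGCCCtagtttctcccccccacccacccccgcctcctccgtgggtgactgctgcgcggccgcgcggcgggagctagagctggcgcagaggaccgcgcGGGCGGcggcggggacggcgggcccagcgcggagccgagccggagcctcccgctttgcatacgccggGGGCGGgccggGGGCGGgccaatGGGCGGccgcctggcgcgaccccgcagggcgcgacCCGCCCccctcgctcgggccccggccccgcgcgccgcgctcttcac
Hoxd13: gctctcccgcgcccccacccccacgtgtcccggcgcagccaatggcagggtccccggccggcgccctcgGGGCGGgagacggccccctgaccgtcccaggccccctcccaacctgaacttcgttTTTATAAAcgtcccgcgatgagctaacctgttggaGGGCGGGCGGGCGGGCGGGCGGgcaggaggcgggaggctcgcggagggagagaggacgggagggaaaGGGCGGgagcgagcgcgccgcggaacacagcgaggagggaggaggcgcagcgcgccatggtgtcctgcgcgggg
Hoxa13 held 6 GC boxes and neither other motif. Hoxd13 held 7 GC boxes, 2 matches to TTTAT and 2 to TATAAA, the last 4 overlapping, since the reverse of TTTAT lies within TATAAA. Over all 32851 promoters of this length, 35.7% held GGGCGG, 40.0% TTTAT and 13.6% TATAAA. The GC content was 81.0% for Hoxa13 and 74.3% for Hoxd13, against a median of 52.7%. These matches describe letters and were not tested as binding sites.

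A total of 18 arrays entered the comparisons. Lung replicate 2 was analysed only through its raw values, since no scanner output of it was used here. On 5 arrays, tail 2, gonad 3, kidney 1, kidney 2 and heart 1, the control spots that should stay dark lay above the range the scanner software accepts. Their net dark signal was 44.6 to 180, against 31.8 to 35.6 on the 13 others. Between 84.9% and 96.6% of all probes were marked well above background on these 5, against 51.2% to 77.2% on the 13 others. Both kidney arrays are among the 5, so kidney and array background cannot be told apart, and results are given with and without these arrays. All 12 fibroblast markers were well above background on every array outside kidney, and 11 to 12 were in kidney. Their summed level, in multiples of each array's 75th percentile, was 1912 to 2723 in tail, 2764 to 3017 in skin, 1942 to 2485 in gonad, 210 to 422 in kidney, 603 to 3503 in heart, 2423 to 3225 in liver and 2620 to 2725 in lung. In such bulk cultures, fewer cells of a type and less RNA per cell cannot be told apart.

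Hoxb13 separated tail from every other organ. Its spot signal, the background-subtracted brightness in scanner units, was 36256, 36325 and 40051 on the 3 tail arrays. It was 50.3 and 35.4 in skin, 3.2, 7.8 and 59.4 in gonad, and 642 and 287 in kidney. In heart the signals were 462, 5.3 and 4.6, in liver 4.8, 2.9 and 5.0, and in lung 14.1 and 6.3. The lowest tail array was thus far above the highest array of any other organ, and the highest values outside tail lay on the high-background arrays of kidney, heart and gonad. Only 4 of the 13 other arrays had the probe well above background, namely both remaining tail arrays and both skin arrays. The tail array of high background read within the range of its tail partners.

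**Figure D1:**
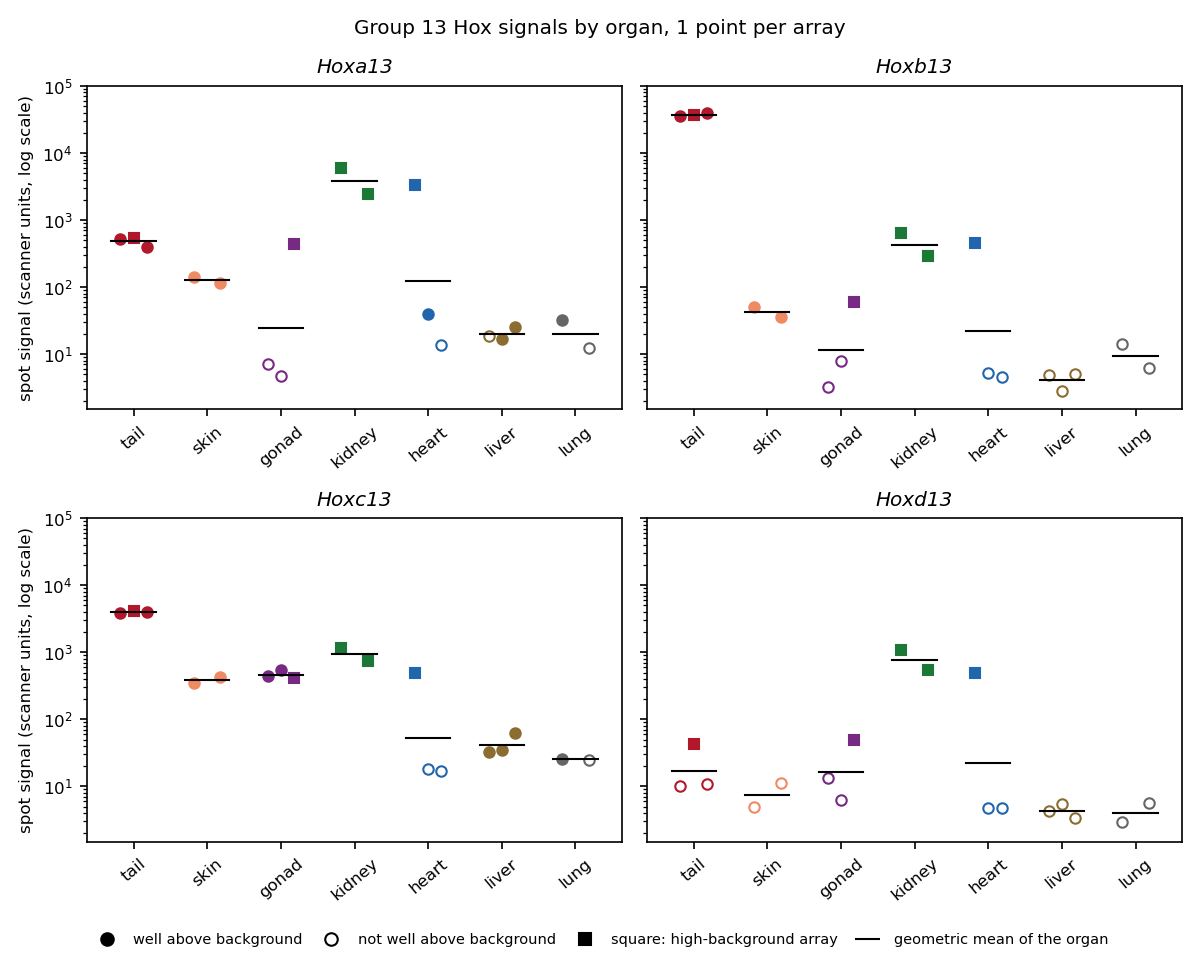
Spot signal of each group 13 Hox gene (scanner units, log scale) by organ, with 1 point per array, the geometric mean as a line, filled points well above background and squares for the 5 high-background arrays. Hoxb13 lay at 36256 to 40051 in tail and at 642 or less elsewhere, while Hoxd13 was filled only on squares.

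Levels were then compared as log2 signal less each array's 75th percentile. On this scale Hoxb13 averaged 6.14 ± 0.26 in tail (SD, n = 3), -3.36 ± 0.17 in skin (n = 2), -5.39 ± 2.04 in gonad (n = 3) and -2.77 ± 0.11 in kidney (n = 2). The limma difference of tail minus skin was 9.50 ± 1.15 (SE, adjusted p = 8.3e-04), that of tail minus gonad 11.53 ± 1.03 (adjusted p = 1.9e-05) and that of tail minus kidney 8.91 ± 1.15 (adjusted p = 3.4e-04). All 3 exceeded the spread between replicates. Since 2 of the 3 gonad arrays had Hoxb13 not above background, the gonad difference is open to that floor, and on the arrays of low background tail was at least 2878-fold above gonad. Against liver and lung, where no array had Hoxb13 well above background, tail was at least 2257-fold and at least 1920-fold higher. Such a bound sets the tail mean against the lowest signal that counts as above background on each array of the other organ, or that array's own value where this is higher. Within the 3 array slides, tail minus the other organs present was 10.73 to 11.40.

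The remaining order of the Hoxb13 means was kidney, skin, heart, gonad, lung and liver, and no neighbours among these 6 were called different (limma adjusted p = 0.67 to 1.00). Among the 13 arrays without high background, skin came second. There skin minus heart, liver and lung was 2.97 ± 0.40 (limma adjusted p = 0.0014), but no heart, liver or lung array among the 13 had the probe above background. As bounds, skin was at least 1.83-fold above heart, 3.11-fold above liver, 2.65-fold above lung and 3.64-fold above gonad. With all 18 arrays that difference was 2.52 ± 1.00 (adjusted p = 0.42). It was 2.97 (adjusted p = 0.035) without heart 1 alone. The low Hoxb13 of skin thus passed only when high-background arrays were left out, from signals of 35.4 and 50.3 in skin against 2.9 to 14.1 in gonad, heart, liver and lung.

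Hoxc13 was highest in tail and had a middle level in skin and gonad. Its signal was 3905, 4129 and 4047 in tail, 345 and 427 in skin, 440, 538 and 413 in gonad, and 1157 and 755 in kidney. Heart read 495, 17.9 and 17, liver 32.3, 34.6 and 62.6, and lung 25.4 and 25.2. The tail arrays did not overlap any other organ, and the skin and gonad arrays lay above all arrays of liver and lung. These signals are not yet scaled between arrays, and in heart only the high-background array had a signal as high as skin and gonad.

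On the scaled log2 measure Hoxc13 averaged 2.92 ± 0.17 in tail, -0.17 ± 0.40 in skin, -0.05 ± 0.35 in gonad and -1.65 ± 0.28 in kidney (SD, n = 3, 2, 3 and 2). Tail minus skin was 3.09 ± 0.62 (limma adjusted p = 0.015). This call rested on few arrays: leaving out skin 1, skin 2, tail 1 or tail 3 gave 2.81 to 3.38 with adjusted p = 0.20, 0.12, 0.058 and 0.060. Without the 5 high-background arrays it was 3.18 ± 0.38 (adjusted p = 9.4e-04). Tail minus gonad was 2.97 ± 0.55 (adjusted p = 0.0045) and tail minus kidney 4.57 ± 0.62 (adjusted p = 4.3e-04). Within slides, tail minus skin was 3.38 and 2.64 on the slides that held both, and tail minus gonad was 2.43 to 3.48.

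Skin and gonad could not be separated by Hoxc13, with skin minus gonad at -0.12 (95% interval -1.45 to 1.20, limma adjusted p = 0.97). Both lay above the mean of heart, liver and lung. Skin exceeded it by 3.70 ± 0.54 (adjusted p = 0.0025) and was not called without skin 2 (3.42, adjusted p = 0.12). Gonad exceeded it by 3.83 ± 0.46 (adjusted p = 5.2e-04). In the order of means tail stood above gonad and skin, kidney was not separated from skin (adjusted p = 0.090) but lay above liver (adjusted p = 0.013), and liver, heart and lung were not separated (adjusted p = 0.86 and 0.60). The 2 gonad arrays of low background had 54.7% and 53.9% of probes above background, near the lowest of all arrays, and Hoxc13 signals of 440 and 538.

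A gene counted as called with a limma p under 0.05 after Benjamini-Hochberg adjustment and a log2 difference of at least 1. Of the 4 members, 2 (Hoxb13 and Hoxc13) were called higher in tail than in skin, where 1.63% of all genes were called higher. Both were also called higher in tail than in gonad (2.64% of all genes), heart (3.27%), liver (2.22%), lung (1.21%) and the mean of the 6 other organs (4.02%). Their tail arrays lay above all 15 others, as for 4.33% of the genes with a value on every array. Against that mean, Hoxb13 was higher by 11 ± 0.80 (adjusted p = 4.7e-06) and Hoxc13 by 5.17 ± 0.43 (adjusted p = 1.0e-05), while the median of all genes was shifted by 0.34. Against kidney, Hoxb13 and Hoxc13 were called higher in tail, as were 35.8% of all genes, and Hoxd13 lower, as were 6.6%, a count from which nothing is read because its probe passed the filter on dim probes only through high-background arrays. These comparisons share the tail samples. In skin against heart, liver and lung, and in gonad against the same 3 organs, 1 member (Hoxc13) was called higher, where 0.817% and 1.41% of all genes were. In the F test over the 7 organs, which 32.4% of all genes passed, Hoxb13 (adjusted p = 4.4e-05) and Hoxc13 (2.9e-05) passed and Hoxa13 did not (0.058), while Hoxd13 is left out for the same reason.

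**Figure D2:**
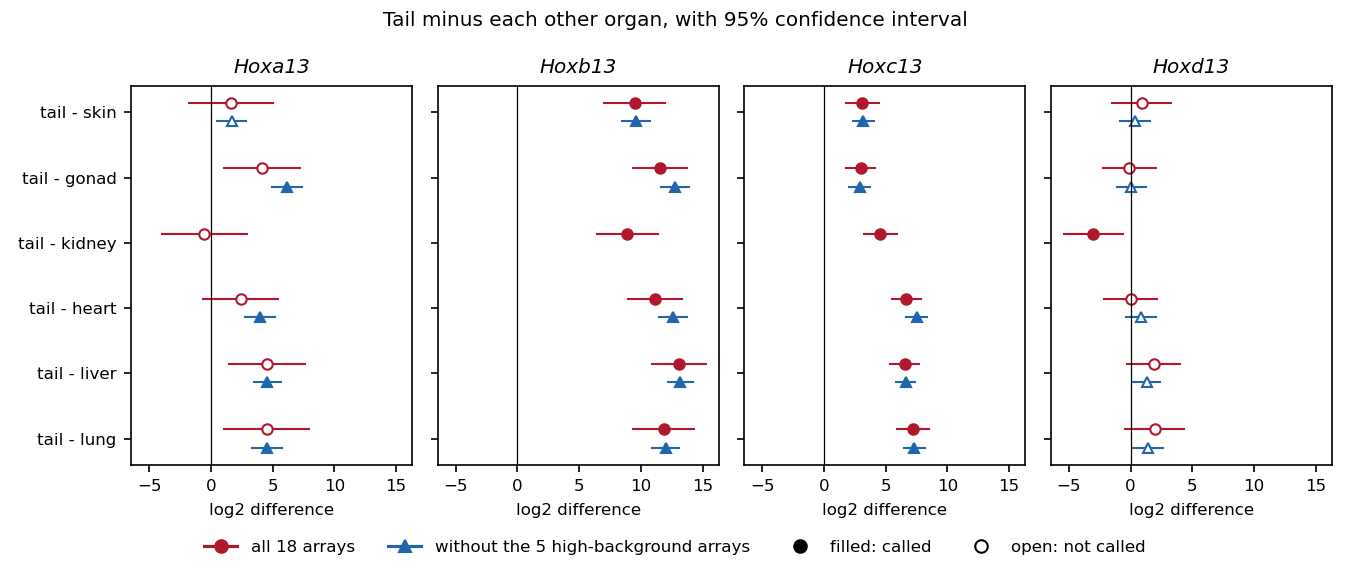
Log2 difference of tail minus each other organ with its 95% confidence interval, for all 18 arrays (circles) and for the 13 without high background (triangles), filled where called. With 18 arrays Hoxb13 and Hoxc13 were called in all 6 pairs, by 2.97 or more, and Hoxa13 in 0.

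Hoxa13 gave a pattern that depended on the high-background arrays. The probe used in the comparison read 530, 537 and 400 in tail and 140 and 114 in skin. In gonad it read 7.2, 4.7 and 434, in kidney 5957 and 2481, and in heart 3281, 39.7 and 13.8. Liver read 18.4, 17 and 25.1, and lung 32.2 and 12.2. On the 13 arrays of low background, tail and skin lay above every array of gonad, heart, liver and lung. On the high-background arrays of gonad, kidney and heart the signal was within the tail range or above it. Within slides, tail minus gonad was 6.07 and 6.33 on the slides of gonad 1 and gonad 2, and 0.06 on that of gonad 3.

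With all 18 arrays Hoxa13 was not called in tail against skin (1.64 ± 1.59, limma adjusted p = 1.00), gonad (4.15 ± 1.43, 0.15), kidney (-0.53 ± 1.59, 0.77) or the 6 other organs (2.79 ± 1.11, 0.20). Leaving out gonad 3 gave 6.14 against gonad (adjusted p = 0.0030) and 3.12 against the other organs (0.022). Leaving out heart 1 gave 4.15 (0.044) and 3.04 (0.046). Without all 5 high-background arrays, tail minus gonad was 6.17 ± 0.53 (adjusted p = 1.2e-04), or at least 34.8-fold, and tail minus the 5 other organs was 4.18 ± 0.41 (2.2e-04). Tail minus heart, liver and lung was 3.99, 4.55 and 4.55, all called. In these 5 comparisons 24.3% (gonad), 16.5% (other organs), 13.7% (heart), 19.3% (liver) and 9.79% (lung) of all genes were called higher in tail. Tail minus skin was 1.67 ± 0.53 (0.060), while Hoxb13 and Hoxc13 were called there with 5.56% of all genes. Skin minus heart, liver and lung was then 2.69 ± 0.43 (adjusted p = 0.0025), and Hoxa13, Hoxb13 and Hoxc13 were all called higher there, as were 20.9% of all genes. With normexp and quantile normalization on those arrays, Hoxa13 (0.81, adjusted p = 0.0014) and Hoxb13 (0.54, adjusted p = 0.034) fell short of the required difference of 1 and were not called in skin. In gonad against heart, liver and lung Hoxc13 was called higher (4.25, as were 3.25% of all genes) and Hoxa13 lower (as were 6.16%). That Hoxa13 call has no exact size, since neither gonad array was above background. With 18 arrays the value was -0.34 (limma adjusted p = 1.00), it was 0.78 without gonad 2, and the other Hoxa13 probe was not called on the 13 arrays (-1.28, adjusted p = 0.33).

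Hoxa13 was also read beside the share of probes above background, which differed between organs. Among the 13 arrays, this share was 75.5% and 71.9% in tail, 77.2% and 69.2% in skin, and 51.2% to 69.3% in the other organs. Lung 1 had 69.3% of probes above background and a Hoxa13 signal of 32.2, against 114 in skin 2 at 69.2%. Outside tail and skin the highest Hoxa13 signal of the 13 arrays, 39.7, was on heart 2 at 54.4%. No association was computed, and the part of array background in the tail and skin values was not tested.

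**Figure D3:**
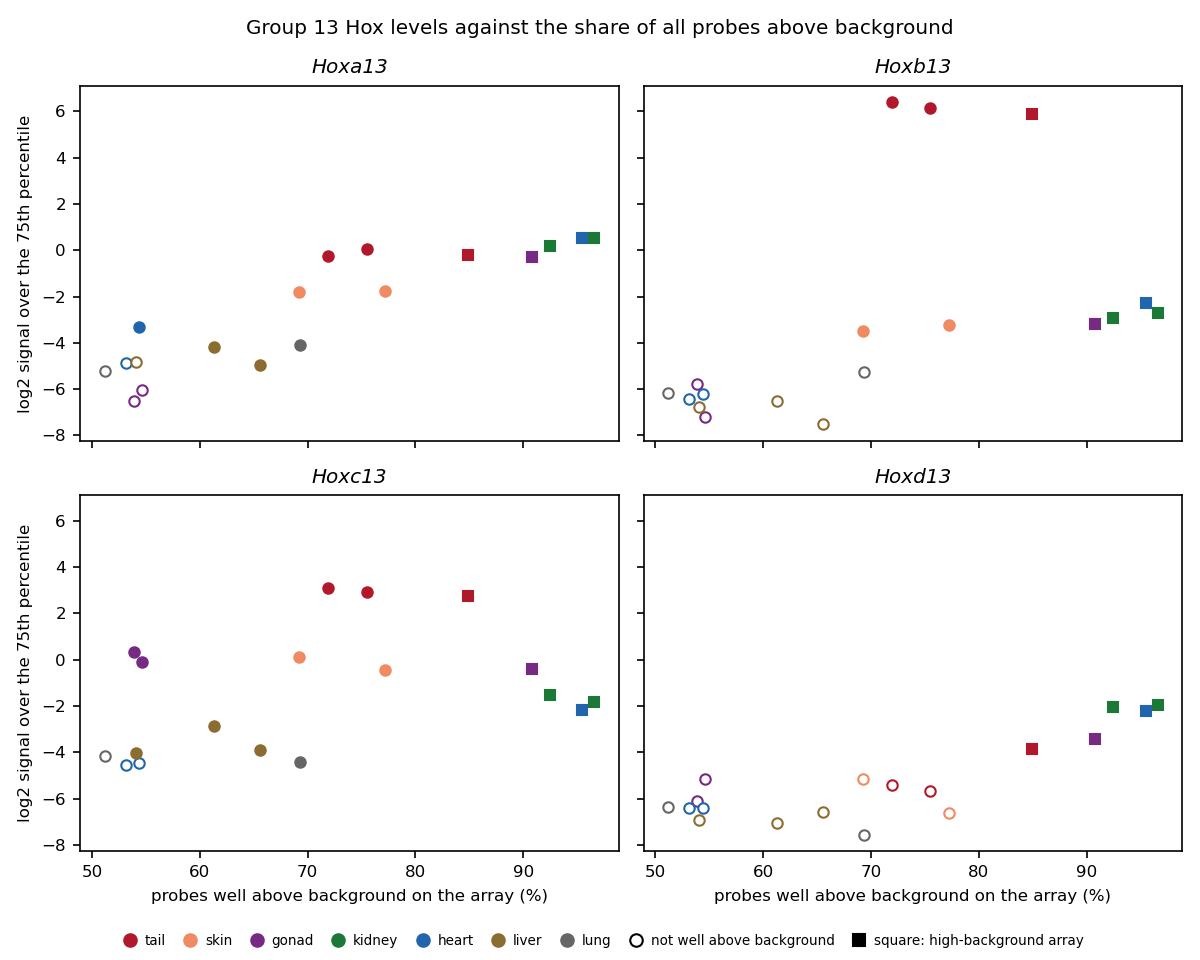
Level of each member (log2 signal over the array's 75th percentile) against the percentage of all probes well above background on the same array, coloured by organ, with squares for the high-background arrays. Hoxd13 was above background only at 84.9% or more, Hoxa13 was high in tail and at 90.8% or more, Hoxb13 was highest in tail, and Hoxc13 was high in gonad at 53.9% and 54.7%.

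The other Hoxa13 probe gave another order for tail and skin. It read 168, 442 and 165 in tail, 348 and 118 in skin, 13.2, 11 and 557 in gonad, 6771 and 5849 in kidney, 3930, 51.0 and 8.6 in heart, 12.8, 30.5 and 67.4 in liver, and 52.3 and 36.8 in lung. Its kidney 2 spot was marked as an outlier by the scanner software. The probe was thus incomplete and was not used in the comparison, though its median signal over 18 arrays was higher (92.4 against 76.9). Tail and skin overlapped, with tail minus skin at -0.11, or -0.47 ± 0.93 without the high-background arrays (limma adjusted p = 0.84). By both probes, tail and skin lay above gonad on low-background arrays. There tail minus gonad was 3.65 ± 0.93 by the other probe (adjusted p = 0.014 over all 53990 probes fitted), and skin minus heart, liver and lung was 2.84 ± 0.75 (adjusted p = 0.018). Tail minus the other organs was called by the probe in the comparison but not by the other one, at 2.06 ± 0.71 (adjusted p = 0.060).

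**Figure D4:**
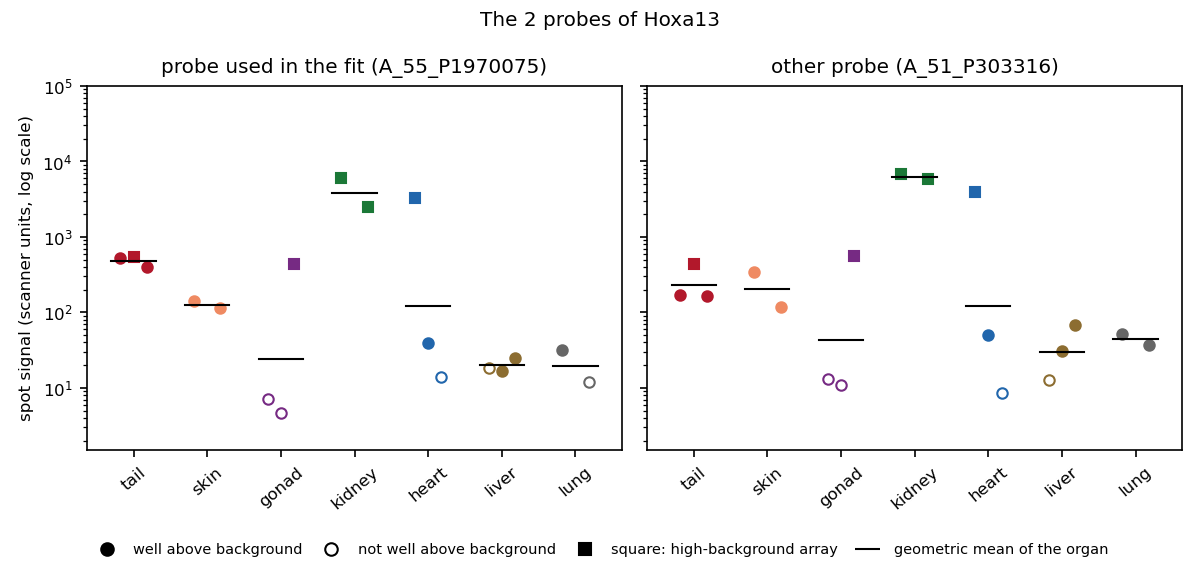
Spot signal of the 2 Hoxa13 probes (scanner units, log scale) by organ, with 1 point per array, the geometric mean as a line, filled points well above background and squares for high-background arrays. Tail lay above skin for the probe on the left (400 to 537 against 114 and 140) and overlapped it for the probe on the right.

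Hoxd13 was detected on no array of low background. Its signal was 10.2, 42.2 and 11 in tail, 4.9 and 11 in skin, 13.3, 6.3 and 49.98 in gonad, and 1068 and 540 in kidney. Heart read 486, 4.7 and 4.7, liver 4.3, 5.5 and 3.4, and lung 2.9 and 5.6. The probe was well above background on exactly the 5 high-background arrays, whatever the organ, and on 0 of the 13 others. It passed the filter on dim probes only through those 5 arrays, so its order of organs is given as values. The fitted difference of tail minus kidney was -3.03, and within the slides that held both it was -3.72 and -3.47, all set against kidney arrays of high background. With normexp background correction and quantile normalization it was -0.42. Tail minus skin was 0.90 and tail minus gonad -0.09, with no skin array and 1 of 3 gonad arrays above background.

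By levels across the 18 arrays, the genes most like Hoxb13 were Car3, a carbonic anhydrase (Pearson r = 0.98), Klhl1, Spink6, Htr7 and Tesk2 (r = 0.97 to 0.95). Car3 read 9017 to 32088 in tail and 3.3 to 948 elsewhere, so its tail arrays too stood apart. Nearest to Hoxc13 were Col8a2, a collagen chain (r = 0.94), Gsta4, Radil, Pcp4l1 and Hoxa11 (r = 0.93 to 0.90), and Hoxa11 reached 0.97 over the 13 arrays. The genes nearest to Hoxa13 were Zp3, an egg coat glycoprotein (r = 0.98), Ctag2l1, Adamts13, Trp73 and Krtdap (r = 0.97), and Zp3 read 108 to 199 in tail and up to 2234 elsewhere. Hoxd13 was nearest to Olfr734, an olfactory receptor gene (r = 0.96), Speer4f1, Vmn2r16, a vomeronasal receptor gene, Asb15 and Slc22a3 (r = 0.96 to 0.95), with r = 0.60 to 0.81 over the 13 arrays. These values describe 18 arrays that share organs, slides and background levels, and were picked from 17987 genes.

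Groups 9 to 12, which lie next to group 13 in the clusters, also held genes that were higher in tail than in the mean of the 6 other organs. Of 12, 11 were measured in the fit, and 4 were called higher and 0 lower in tail than in the 6 other organs, where 4.02% and 2.16% of all genes were. Their median difference was 1.56, against 0.34 over all genes. Hoxc11 was higher by 4.89 ± 0.82 (limma adjusted p = 0.0020), Hoxa11 by 4.40 ± 0.73 (0.0018), Hoxa10 by 3.49 ± 0.73 (0.010) and Hoxb9 by 2.35 ± 0.62 (0.038). Against skin, with all 18 arrays, 0 were called in either direction, and Hoxc11 differed by 3.21 ± 1.18 (0.23). Against gonad, 2 of the 11 were called higher in tail (2.64% of all genes) and 1, Hoxd9, lower (2.62%). Hoxd9 differed by -5.90 ± 1.1 (limma adjusted p = 0.0045). It was well above background on 1 of 3 tail arrays and on 3 of 3 gonad arrays. Without the high-background arrays 4 were higher and 2 lower in tail than in gonad, where 6189 of 20201 genes were called in either direction. In tail against skin 2 were then called higher and 2 lower, where 2396 of 20201 genes were called in either direction. Without the high-background arrays, 8 of the 11 were called higher in tail than in the 5 other organs (16.5% of all genes) and 1, Hoxd9, lower (4.96%). Against heart, liver and lung, 3 of the 11 were called higher in skin (median 2.62, 0.817% of all genes). In gonad 5 were (median 2.72, 1.41%). Without the high-background arrays 9 were higher in skin (20.9%) and 7 in gonad (3.25%). The summed level of 10 of them was 11.76 to 13.4 in tail, 24.14 to 29.95 in skin and 11.95 to 12.86 in gonad. It was 12.42 to 18.45 in kidney, 0.35 to 9.59 in heart, 0.5 to 1.32 in liver and 0.57 to 1.04 in lung. HoxD genes of groups 9 to 12 were not among those called higher in tail in either fit. Hoxd10 was at -0.35 ± 0.94 and Hoxd11 at 0.14 ± 0.76 against the 6 other organs. Hoxd13 is left out here, since its probe passed the filter on dim probes only through high-background arrays.

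**Figure D5:**
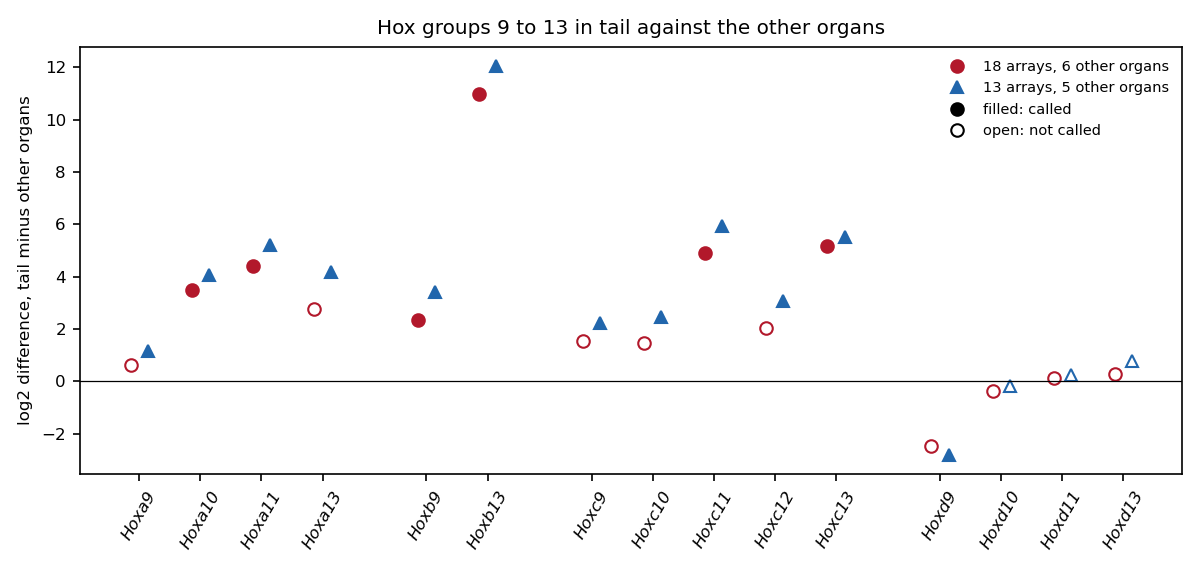
Log2 difference of tail minus the mean of the other organs for Hox groups 9 to 13, ordered by cluster and group, for 18 arrays (circles) and 13 arrays without high background (triangles), filled where called. With 18 arrays Hoxb13 was at 11 and Hoxc13 at 5.17, and no HoxD gene of groups 9 to 12 was called higher. Hoxd13 is drawn, but nothing is read from its points.

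Of 12 neighbours of the group 13 genes, 8 were measured, and 0 were called in tail against the 6 other organs by limma (median 0.32, all genes 0.34). Of all genes 4.02% were called higher and 2.16% lower there. Against kidney 3 of the 8 were higher and 1 lower in tail, where 35.8% and 6.6% of all genes were. Against skin 1 of the 8 was called higher and 0 lower in tail, where 1.63% and 1.16% of all genes were. It was Calcoco1, a coactivator gene near Hoxc13 (1.41 ± 0.34, limma adjusted p = 0.039), at signals of 214 to 341 in tail and 72.5 to 102 in skin. Evx2, the homeobox gene next to Hoxd13, was not well above background on any tail array.

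Among 17 regulators of caudal and distal limb development, 1 was called higher and 1 lower in tail than in the 6 other organs (median 0.37), where 4.02% and 2.16% of all genes were. Without the high-background arrays 5 were higher and 1 lower than in the 5 other organs, where 16.5% and 4.96% of all genes were. With all 18 arrays Msx2, a homeobox gene of limb and skin, was higher by 1.78 ± 0.38 (limma adjusted p = 0.010). Hand2, a bHLH factor, was lower (-3.30 ± 0.40, adjusted p = 2.6e-04), at 30.0 to 44.2 in tail, against 361 to 406 in skin, 210 to 293 in gonad and 1901 to 2490 in liver. Pitx1, known for hindlimb identity, was not well above background in tail and was at least 18.9-fold lower there than in skin (adjusted p = 0.016), where 1.16% of all genes were lower. Of 11 genes reported downstream of group 13 proteins, 0 were called higher and 3 lower in tail (median -0.07). These were Hand2, Aldh1a2, which makes retinoic acid (-4.53 ± 0.46, adjusted p = 4.6e-05), and Foxq1, at least 12-fold lower in tail than in liver (adjusted p = 0.0054 against the 6 other organs). In tail against skin 1 of the 11 was called higher and 2 lower (median -0.86, all genes -0.01), where 1.63% and 1.16% of all genes were. The higher gene was Bmp2 (2.08 ± 0.51, limma adjusted p = 0.048), at 98.3 to 199.5 in tail and 18.5 to 41.0 in skin. Without the high-background arrays 1 was higher and 4 lower, where 2396 of 20201 genes were called in either direction.

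Markers of other cell types were read beside Hoxc13 and Hoxa13, since hair and nail cells are known to express Hoxc13. Against the 6 other organs, 4.02% of all genes were higher and 2.16% lower in tail, and 16.5% and 4.96% without the high-background arrays. Of 15 hair and nail genes 1 was called higher in tail than in the 6 other organs, Krt84, a nail and tongue keratin (4.89 ± 0.48, limma adjusted p = 3.1e-05). It read 216 to 385 in tail and 9.0 to 17.3 in skin, at least 11.1-fold higher in tail, and was well above background on 1 of 15 arrays outside tail. Without the high-background arrays, 7 of the 15 were called higher in tail than in the 5 other organs, and 7 in skin than in heart, liver and lung. The summed level of the 15 genes was 4.8 to 8.1 in tail, 4.1 to 5.2 in skin, 2.2 to 7.7 in gonad and 11.3 to 11.7 in kidney. Of 12 keratinocyte genes 0 were called in tail against the 6 other organs, and the sum was 8.1 to 8.8 in tail, 15.6 to 18.5 in skin and 5.7 to 11.2 in gonad. Without the high-background arrays, 5 of the 12 were called higher in tail. In skin against heart, liver and lung, where Hoxa13, Hoxb13 and Hoxc13 were called on those arrays, 8 of the 12 were higher (median 2.78, all genes 0.22), against 20.9% of all genes. Krt14, a basal keratin, was lower in tail than in skin (-5.92 ± 0.90, adjusted p = 0.0032). Of 7 tendon and cartilage genes 3 were called higher and 1 lower in tail without the high-background arrays. With all 18 arrays, 3 of the 7 were higher and 0 lower in tail than in the 6 other organs. They were Mkx, a tendon transcription factor (2.88 ± 0.50, adjusted p = 0.0027), Comp, a cartilage matrix protein (7.60 ± 0.59, adjusted p = 7.5e-06), and Tnmd, a tendon membrane protein (5.91 ± 0.65, adjusted p = 8.3e-05). Of 9 simple epithelial genes 2 (Krt8 and Krt18) were lower in tail, and of 8 endothelial genes 1 (Tek) was higher and 3 (Cdh5, Emcn and Tie1) were lower. Of 6 macrophage and leucocyte genes 0 were called by limma, and of 5 skeletal muscle genes 1 (Des) was lower. Of 12 fibroblast markers 0 were called against the 6 other organs, and all 12 were higher in tail than in kidney, as were 35.8% of all genes. The part of these cells in the Hox levels was not tested.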

How the data were processed

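The submitters' processing notes name Agilent Feature Extraction 11.0.1.1. Per the file headers, each array of 1 colour held 62976 spots, and the spot signal is a background-subtracted, spatially detrended intensity in scanner units, deposited by the authors without normalization between arrays. The other deposited flags (0 or 1) mark spots well above background, saturated or uneven. The deposited value table, also an intensity, equalled the raw spot median on 18 arrays and was the only source for lung 2.

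Probes were named through RefSeq accessions (27229 of 55681 biological probes with a symbol). Uneven spots were set to missing, no spot was saturated, and each array's 75th percentile was subtracted from its log2 signals. The brightest complete probe of a gene was kept if well above background on at least 2 arrays. One limma model (version 3.58.1, R 4.3.3), with no block and 11 residual degrees of freedom, covered 20201 genes on 18 arrays with a mean per organ. P-values were adjusted over all genes of a contrast (Benjamini-Hochberg). The number of arrays limits the precision.

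Named genes were the members, the 5 genes most correlated with each, and up to 4 called members of each list with the largest difference, from 12 lists: Hox groups 9 to 12, neighbours, caudal and distal limb regulators, genes downstream of group 13 proteins, and markers of 8 cell types. Pitx1, Bmp2, Krt14, Calcoco1, Evx2 and Hoxd9 to Hoxd11 were described for other comparisons or for their position. Members and lists were chosen with earlier results of these data known. Alternatives were other normalizations, filters, thresholds and detection rules, blocks for slide and replicate number, the array floor as a covariate, and leaving out arrays. A fit of the raw medians of all 19 samples was also among them. Fitting every probe singly, and combining normexp with the removal of 5 arrays, were chosen after seeing the data.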

Additional observations from a re-analysis of the deposited data

How the results depend on the processing

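Hoxb13 and Hoxc13 stayed higher in tail than in gonad, in kidney and in the 6 other organs under every alternative run, as did Hoxb13 in tail against skin. Hoxc13 in tail against skin was 3.09 and not called at an adjusted p under 0.01 (1 member left), and ranged from 2.81 to 3.38 with 1 array left out, with 1 to 2 members called. By the probe in the comparison, Hoxa13 became called without the high-background arrays in tail against gonad (6.17) and the other organs (4.18). With normexp and quantile normalization on those 13 arrays it gave 1.39 against skin, 2.49 against gonad and 2.09 against the other organs, all called. The Hoxa13 and Hoxb13 calls in skin against heart, liver and lung were not made there. The other Hoxa13 probe was fitted on the 13 arrays without that normalization. It gave -0.47 against skin and 2.06 against the other organs, both uncalled, and 3.65 against gonad, called. With 1 array left out, Hoxa13 by the probe in the comparison ranged from 3.04 to 6.14 against gonad and from 2.59 to 3.12 against the other organs. Hoxd13 in tail against kidney, from which nothing is read, was not called at the stricter threshold (-3.03), with the array floor as a covariate (-3.02), quantile normalization (-1.37), normexp and quantile normalization (-0.42) or the replicate block (-3.04). With 1 array left out it ranged from -3.59 to -2.70, and it was not called without gonad 1, liver 1, liver 2, liver 3, tail 1 or tail 3. It was -3.05 without kidney 1 and -3.02 without kidney 2, which leave 1 kidney array. In skin against heart, liver and lung, 3 members were called without the high-background arrays and 0 to 2 with 1 array left out (0 without skin 2, 2 without heart 1). In gonad against those organs 2 were called without the 5 arrays, and Hoxa13 there ranged from -2.33 to 0.78 with 1 array left out, uncalled. The causes were not tested. Counts of all genes called moved more: 563 in tail against skin became 225 at the stricter threshold, 366 with the replicate block, 2396 without the 5 arrays and 75 (without skin 2) to 1889 (without heart 1) with 1 array left out. Without the 5 arrays, 1062 in tail against gonad became 6189, 1247 in tail against the other organs 4340, 325 in skin against heart, liver and lung 4982, and 409 in gonad against those organs 1901. Samples with the same replicate number did not deviate together (median r = -0.04 over 46 pairs, 0.02 for other numbers), so the numbers were taken as names, and the replicate block changed no other call of a member in a tail comparison. No value called with 18 arrays changed sign under the alternatives run. Detection by dark spots plus 3 SD gave 12, 9, 13 and 6 arrays for Hoxa13, Hoxb13, Hoxc13 and Hoxd13, in place of 13, 9, 15 and 5.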

Other observations

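Lung replicate 2, held only as raw spot medians, read 72 and 81.5 for the Hoxa13 probes, 60 for Hoxb13, 77 for Hoxc13 and 46 for Hoxd13. On the same scale lung 1 and lung 3 read 77 and 62 for the Hoxa13 probe of the comparison, 88.5 and 78.5 for the other Hoxa13 probe, 58 and 47 for Hoxb13, 69 and 69.5 for Hoxc13, and 46 and 45 for Hoxd13. Raw medians hold the local background. They were set against other organs only in the alternative that fitted the raw medians of all 19 samples.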
